A study of Rattus norvegicus with 49 samples.

Results

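Ankrd2 and 9 genes of the slow (type I) muscle fibre programme, Csrp3, Myh7, Tnnt1, Tnni1, Tnnc1, Myl2, Myl3, Atp2a2 and Myoz2, were followed through 49 rat thyroid arrays. The members were named gene by gene and found by matching the RefSeq accession of each probe to the symbol. A probe was matched for 9 of the 10 genes, out of 15154 genes with a matched probe, and all 9 were well above background on enough arrays to be tested. Myoz2 was not matched to a probe. The members were chosen by measured values in part, since Ankrd2 and Csrp3 were picked for their signals in exposed young rats against controls 9 months after injection, and the others for belonging to the slow-fibre programme. Their values there are therefore given as a description without a test, as are all comparisons that use the same 10-month controls.

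Slow fibres are built from the same sarcomere parts as fast fibres but use their own isoforms of myosin, troponin and the calcium pump, which favour sustained contraction. Ankrd2 is a muscle ankyrin repeat protein that binds titin and the Z-disc and enters the nucleus after mechanical strain, and it is most abundant in slow fibres. Csrp3 (muscle LIM protein) belongs to the same strain-sensing group at the Z-disc, and Myoz2 (calsarcin-1) ties calcineurin to it. The thyroid gland lies against the trachea and under the strap muscles of the neck, and striated muscle sarcomere genes are not part of the follicular cell's own programme.

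The study asked how small activities of 131I, the radioiodine that the thyroid concentrates, change thyroid expression months later. Male Sprague Dawley rats were injected with 131I at 5 weeks of age (young) or at 17 weeks (adult). Young rats received 50 kBq and were killed 3, 6 or 9 months later, or 0.5, 5 or 500 kBq and were killed 9 months later. Adult rats received 50 kBq and were killed 3, 6 or 9 months later. Untreated controls were 4, 7, 10 or 13 months old. There were 13 groups, 10 of 4 arrays and 3 of 3 arrays (young rats 9 months after 5 kBq, and controls of 7 and 13 months), with one animal's flash-frozen thyroid per array. All levels below are log2 signals relative to the array's 75th percentile, so that a value of 0 means a probe as bright as that percentile and a step of 1 means a doubling of signal. Levels of different probes cannot be set against each other.

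The stretch of 250 bases before the annotated start of Ankrd2 is printed beside those of Tnnt1 and Tnni1, the slow troponin T and I genes. Ankrd2 is the gene the set is built around, Tnnt1 was among the members called in old controls, and Tnni1 was among those closest to Ankrd2 across arrays. Sequences are from RefSeq on GRCr8, given 5′ to 3′ along the gene's strand, which is the plus strand for all 3. Capitals mark E-boxes (CANNTG, the myogenic factor site) and the TATA box (TATAAA), searched on both strands. The windows are chr1:250796169-250796418 for Ankrd2, chr1:78348785-78349034 for Tnnt1 and chr13:49781279-49781528 for Tnni1.
Ankrd2: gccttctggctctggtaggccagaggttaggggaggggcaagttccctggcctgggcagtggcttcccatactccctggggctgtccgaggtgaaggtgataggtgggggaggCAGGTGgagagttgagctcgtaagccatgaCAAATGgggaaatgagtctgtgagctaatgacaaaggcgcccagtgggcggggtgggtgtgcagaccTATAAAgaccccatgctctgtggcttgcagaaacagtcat
Tnnt1: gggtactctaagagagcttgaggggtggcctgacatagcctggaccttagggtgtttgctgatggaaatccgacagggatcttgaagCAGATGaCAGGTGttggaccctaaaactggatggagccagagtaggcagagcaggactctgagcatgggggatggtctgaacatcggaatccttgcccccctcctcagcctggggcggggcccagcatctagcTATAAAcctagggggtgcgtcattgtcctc
Tnni1: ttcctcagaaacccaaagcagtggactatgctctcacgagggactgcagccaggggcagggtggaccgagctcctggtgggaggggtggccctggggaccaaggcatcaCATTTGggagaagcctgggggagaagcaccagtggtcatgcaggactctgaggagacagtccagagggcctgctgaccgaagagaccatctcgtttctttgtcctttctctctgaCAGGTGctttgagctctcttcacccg

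In these letters Ankrd2 held E-boxes 137 and 107 bases before its start and a TATA box 40 bases before it. Tnnt1 held E-boxes at 163 and 156 bases and a TATA box at 30 bases, and Tnni1 held E-boxes at 141 and 26 bases. The table of promoters matched 7 of the 10 members, and Csrp3, Tnnc1 and Myl2 had no entry. An E-box occurred in 7 of these 7 windows and in 65.5% of 33465 windows of the same length, and the TATA box in 2 of 7 and in 12.9%. The muscle sites MCAT (CATTCC), MEF2 and CArG were each found in 1 of the 7, against 12.1%, 3.0% and 1.5% of all windows. A match says only that the letters are there. The Ankrd2 gene lies on chromosome 1 from 250796419 to 250805867.

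Several arrays stood apart and are marked beside the results they touch. Young rat 2 at 3 months after 50 kBq had a faint array, with a 75th percentile of 61.0 in processed signal against 783 to 4172 on the other 48 arrays, and 43.1% of its probes were well above background against 69.2% to 82.5%. Thyroglobulin (Tg), the defining product of thyroid follicular cells, stood between 6.41 and 10.94 on 47 arrays but at 0.14 in young rat 3 at 3 months and at -0.69 in 7-month control 2, so that these samples went against their tissue label. The arrays of 13-month controls 1 and 2 were the closest of 1176 pairs (SD of their log2 differences 0.219 over 18731 probes, median pair 0.706), followed by adult rats 1 and 2 at 6 months (0.238). They were kept as separate arrays, and the main values of the comparisons that hold them are also given with each pair averaged into 1, but not the interaction terms. In whole tissue, fewer muscle cells and less RNA per muscle cell cannot be told apart.

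**Figure D1:**
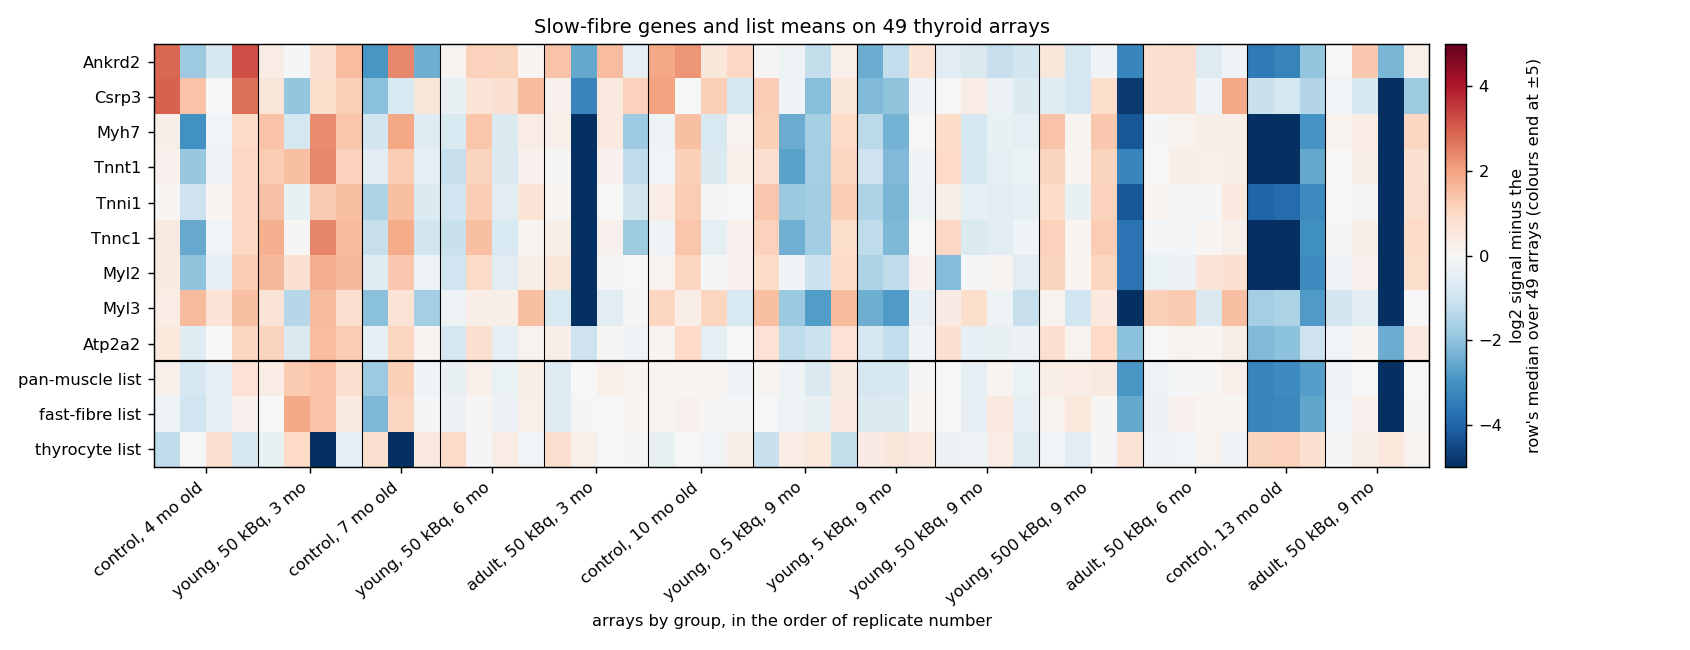
Slow-fibre genes, and the mean of the pan-muscle, fast-fibre and thyrocyte gene lists, on all 49 arrays. Each column is 1 array in replicate order within its group, and colour gives the log2 signal minus the row's median, with colours ending at ±5. Young 500 kBq rat 4 at 9 months, adult rat 2 at 3 months, adult rat 3 at 9 months and 13-month controls 1 and 2 form the darkest blue columns, and in adult rat 2 the pan-muscle and fast-fibre rows are near white.

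The slow-fibre genes varied more between single thyroids than most probes did. The SD over 49 arrays was 1.64 for Ankrd2, higher than for 96.9% of tested probes, and the median of all probes was 0.579. The lowest and highest arrays of Ankrd2 were 107-fold apart. Myh7, the slow myosin heavy chain shared with the heart ventricle, had an SD of 2.91, and its lowest array, 13-month control 2, was not well above background, whereas Atp2a2 (SERCA2, the calcium pump of slow and cardiac muscle) spanned 16.2-fold, with an SD higher than for 77.2% of probes. Most of this spread lay within groups, as the SD of Ankrd2 within groups was 1.47.

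The extremes fell on a few animals. Young rat 4 at 9 months after 500 kBq was among the 5 lowest arrays for 9 of the 9 members, adult rat 2 at 3 months and adult rat 3 at 9 months for 8 each, and 13-month controls 1 and 2 for 7 each. At the other end, young rat 3 at 3 months and 7-month control 2, the arrays with little Tg, were each among the 5 highest for 7 members. On those arrays the mean of 11 follicular cell genes was -4.42 and -5.08, below the 0.00 to 2.43 of the other 47 arrays. Their part in the spread was not tested.

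Ankrd2 was well above background on all 49 arrays, and its level was lowest in the oldest controls. In 4-month controls it read 0.56, -4.15, -3.15 and 0.88. In 7-month controls it read -5.23, 0.08 and -4.79. These groups each held both very high and very low animals, and the highest 7-month control was the one with little Tg. In 10-month controls the values were -0.39, -0.12, -1.76 and -1.28. In 13-month controls they were -5.86, -5.66 and -4.27. The 13-month animals include the pair of nearly equal arrays, and the 10-month animals are the controls against which Ankrd2 was chosen.

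Among exposed young rats, Ankrd2 read -1.96, -2.39, -1.59 and -0.79 at 3 months and -2.19, -1.17, -1.23 and -2.24 at 6 months after 50 kBq. Exposed adults read -0.91, -4.90, -0.78 and -2.81 at 3 months, -1.56, -1.49, -2.98 and -2.56 at 6 months and -2.33, -0.98, -4.62 and -2.09 at 9 months. The young groups were narrow (SD 0.68 and 0.59, n = 4 each) and the adult groups at 3 and 9 months wide (SD 1.94 and 1.52, n = 4 each). In young rats 9 months after injection the values were -2.28, -2.57, -3.53 and -2.07 for 0.5 kBq, -4.83, -3.55 and -1.65 for 5 kBq, -2.88, -3.04, -3.47 and -3.23 for 50 kBq, and -1.76, -3.22, -2.54 and -5.60 for 500 kBq. The 50 kBq animals at 9 months lay closest together of the 13 groups (SD 0.25), and in the 500 kBq group animal 4 stood far below the rest.

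Ordered by group mean, Ankrd2 ran from -0.89 ± 0.76 (SD, n = 4) in 10-month controls through 4-month controls (-1.46 ± 2.56, n = 4), young rats at 3 and 6 months, adults at 6, 3 and 9 months, young rats 9 months after 0.5, 50 and 500 kBq, 7-month controls (-3.31 ± 2.95, n = 3) and young rats 9 months after 5 kBq, to -5.27 ± 0.87 (n = 3) in 13-month controls. Every pair of neighbours in this order overlapped. Only the last step, 1.92, was larger than the within-group SD of 1.47.

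**Figure D2:**
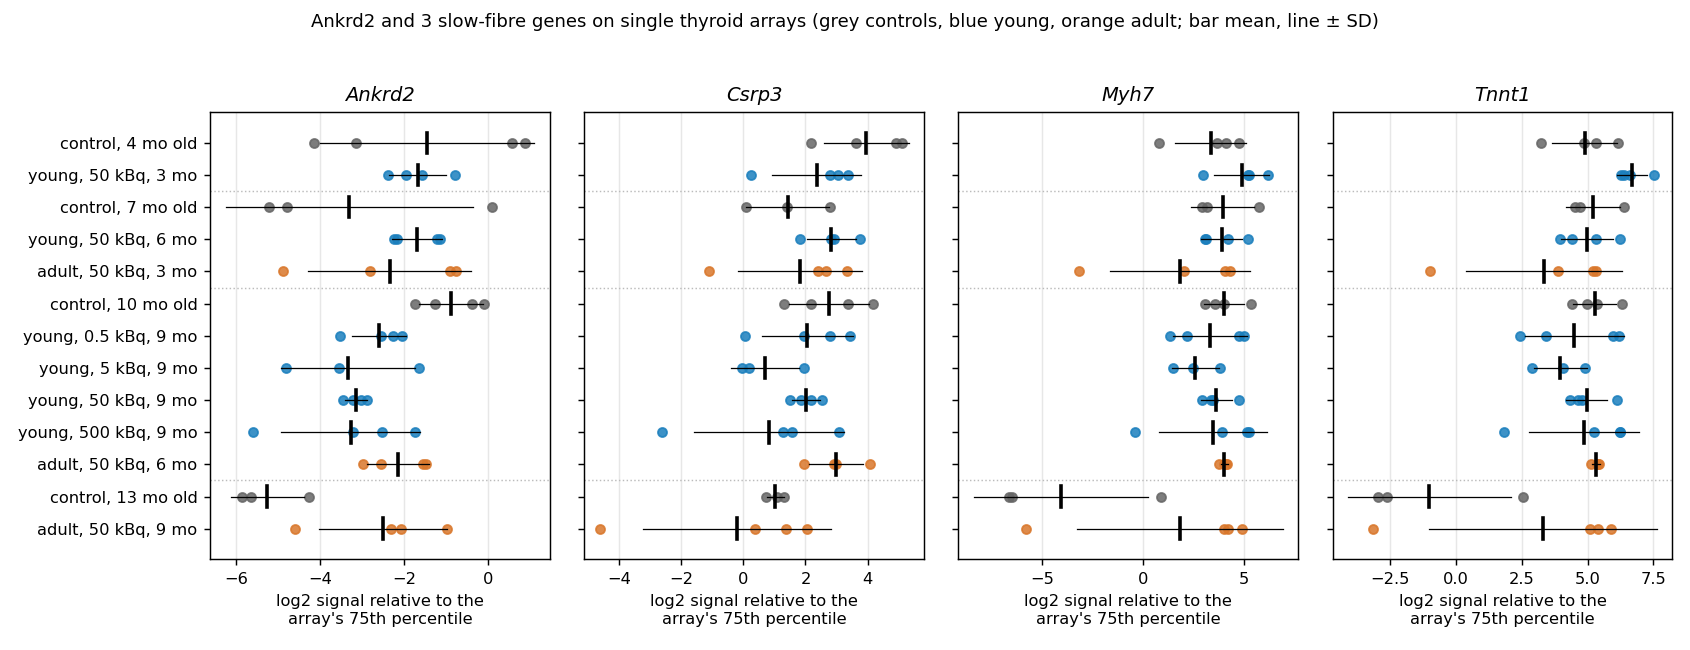
Ankrd2, Csrp3, Myh7 and Tnnt1 on single arrays of the 13 groups. The horizontal axis gives the log2 signal relative to the array's 75th percentile, each point is 1 array, bars are group means and lines ± SD (n = 3 or 4), and dotted lines part the ages. Ankrd2 in 13-month controls lies between -5.86 and -4.27, and Tnnt1 in young rats 3 months after 50 kBq lies between 6.25 and 7.53, above all 4 controls.

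In young rats 3 months after 50 kBq, no slow-fibre gene passed the test against 4-month controls. A gene was called where its limma adjusted p was below 0.01 and its fold change above 1.5, and 0.0158% of 25363 probes were called in this comparison. With 1 probe per gene, no member reached an unadjusted limma p under 0.05, which 38% of probes did. A second Atp2a2 probe, for another RefSeq transcript, differed by -0.96 ± 0.35 (limma adjusted p 0.0494), where the first was at 0.57. Ankrd2 differed by -0.22 ± 1.01 (log2 fold change ± SE, limma adjusted p 0.883), with exposed animals inside the range of the controls. Csrp3 read 2.78, 0.25, 3.04 and 3.37 in exposed animals and 5.12, 3.62, 2.19 and 4.92 in controls, a difference of -1.60 ± 1.09 (limma adjusted p 0.271). Its lowest value came from the faint array.

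Tnnt1 was higher in all exposed young rats than in any 4-month control. It read 6.37, 6.61, 7.53 and 6.25 in the exposed animals and 5.33, 3.22, 4.86 and 6.13 in the controls. The difference was 1.80 ± 1.37 (limma adjusted p 0.323, two-sided exact permutation p 0.0286, the smallest that 4 against 4 can give), and Tnnt1 was the only member without overlap in this comparison, beside 3.97% of all probes that lay above every control in the same way. A second Tnnt1 probe showed the same order. Tnnc1 (slow and cardiac troponin C), Myl2 (the regulatory light chain) and Myh7 differed by 1.76 ± 1.24, 1.62 ± 1.59 and 1.55 ± 1.67. The median over 9 members was 0.93, against 0.31 for all probes. Pan-muscle and fast-fibre genes had medians of 1.17 and 1.24, so higher values were not particular to the slow-fibre genes. Without the faint array Ankrd2 stood at 0.02, the median over members at 1.38, and no member was called. Without young rat 3, the animal with little Tg, Ankrd2 stood at -0.25.

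In young rats 6 months after 50 kBq, the values were set against 7-month controls, which also served the adults at 3 months. No member and 0% of probes were called, and 6.54% of probes had an unadjusted limma p under 0.05, none of them a member. Ankrd2 differed by 1.61 ± 1.09 (limma adjusted p 0.847), all exposed animals lying between the lowest and the highest control. Csrp3 read 1.81, 2.83, 2.92 and 3.74 against 0.10, 1.40 and 2.79 in controls, and Myl3 (the slow essential light chain) 3.13, 3.71, 3.71 and 4.90 against 1.31, 4.06 and 1.68. Exposed and control animals overlapped for both genes, with differences of 1.40 ± 1.18 and 1.51 ± 1.40. The other 6 members lay between -0.36 and 0.35, and the median over 9 members was 0.00, against -0.11 for all probes. Without 7-month control 2, the animal with little Tg, the difference of Ankrd2 was 3.30 and all 9 members were above 0, with none called. No control of that age was scanned with the exposed animals, so no value within a scan could be given.

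In adult rats 3 months after 50 kBq, again no member and 0% of probes were called (4.72% of probes at an unadjusted limma p under 0.05, none of them a member). Ankrd2 differed by 0.96 ± 1.09 and Csrp3 by 0.40 ± 1.18, while the other 7 members lay between -2.14 and -0.48. The lowest values came from adult rat 2, and rat 4 was also below every 7-month control for Myh7, Tnnt1 and Tnnc1. In adult rat 2 Myh7 read -3.14 beside 4.09, 4.34 and 2.04 in the other animals, Tnnt1 read -1.01 beside 5.18, 5.32 and 3.85, and Tnni1 -3.30 beside 2.97, 2.88 and 1.97. Muscle genes as a whole were not low in it. The mean of the 8 slow members without Ankrd2 was -1.98, while the 13 pan-muscle genes averaged 3.91 (3.31 to 4.20 in the other 3 rats) and the 12 fast-fibre genes 6.57 (5.99 to 6.72). Its slow mean minus its fast mean was -8.55, and on the other 48 arrays this difference ran from -5.72 to -1.98. Without 7-month control 2 the difference of Ankrd2 was 2.66 and the median over members -0.60 in place of -1.42, and the median of all probes was -0.12.

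**Figure D3:**
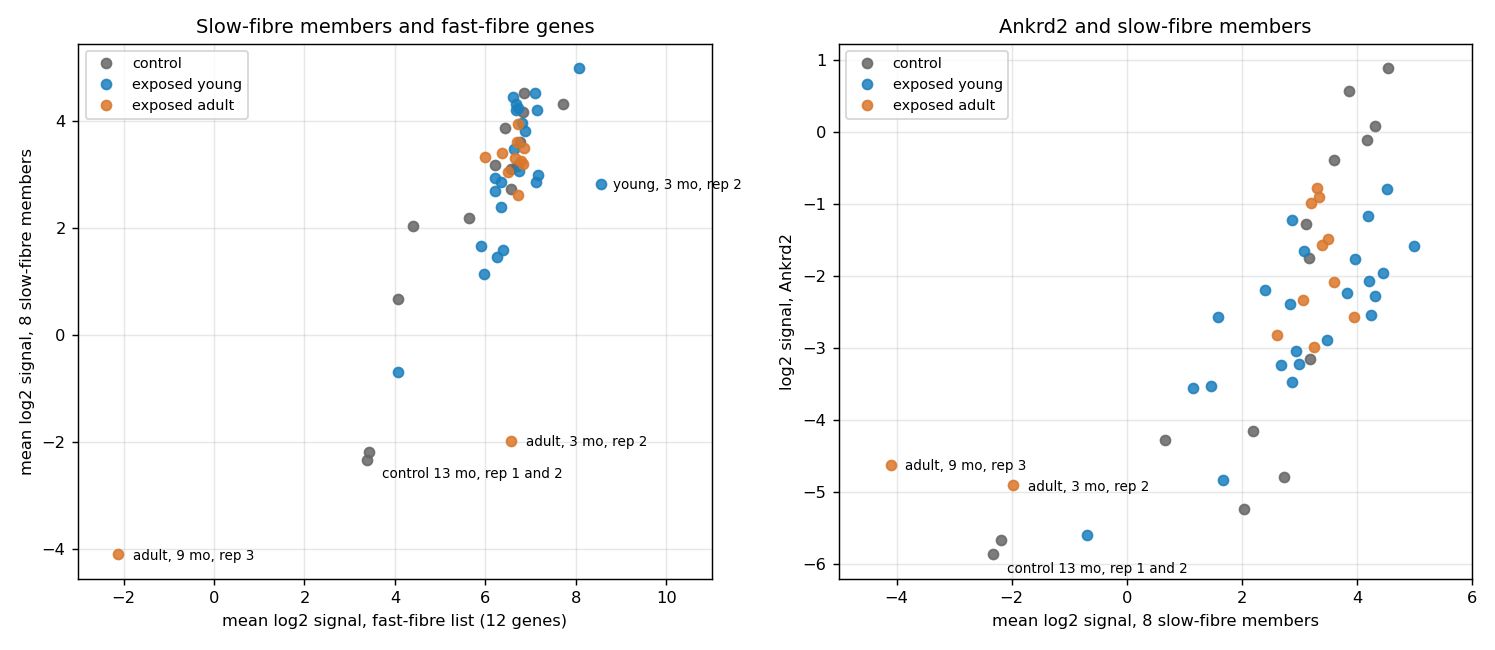
Left, the mean log2 signal of 8 slow-fibre members against that of 12 fast-fibre genes, and right, Ankrd2 against the slow-fibre mean, with 1 point per array (49 arrays; grey controls, blue young, orange adult). Adult rat 2 at 3 months lies below the other arrays on the left, at a fast-fibre mean of 6.57 and a slow-fibre mean of -1.98, and adult rat 3 at 9 months is low on both axes.

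In adult rats 9 months after 50 kBq, most slow-fibre genes were higher than in 13-month controls but none passed the test. In this comparison 0.552% of probes were called, 51 higher and 89 lower. An unadjusted limma p under 0.05 was reached by 5 of 9 members and by 21.8% of probes. Ankrd2 differed by 2.76 ± 1.09 (limma adjusted p 0.123). Myh7 read 4.03, 4.21, -5.81 and 4.92 in exposed adults and -6.49, -6.61 and 0.91 in controls, a difference of 5.90 ± 1.81 (limma adjusted p 0.0497). Animals 1, 2 and 4 were above every control and animal 3 was nearly as low as the lowest controls.

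Myl2 read 1.54, 2.01, -9.22 and 2.70 against -8.87, -8.63 and -1.36, a difference of 5.54 ± 1.72 (limma adjusted p 0.0519), and it was not well above background on the exposed array at -9.22 and in controls 1 and 2. Tnnt1 differed by 4.32 ± 1.47, Tnnc1 by 3.77 ± 1.34, Tnni1 by 2.29 ± 1.28 and Atp2a2 by 1.26 ± 0.65, with limma adjusted p from 0.0760 for Tnnt1 upwards. Csrp3 and Myl3 were at -1.24 ± 1.18 and -0.11 ± 1.40, but at 0.23 and 1.56 without adult rat 3. The median over members was 2.76, against -0.14 for all probes. Other muscle genes were also higher, with medians of 1.12 for pan-muscle genes, 0.90 for fast-fibre genes and 2.12 for Z-disc genes.

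Adult rat 3 at 9 months was the low animal throughout. Its 8 slow members averaged -4.11, its pan-muscle genes -3.55 and its fast-fibre genes -2.12, while its follicular cell genes averaged 1.79, close to the 1.17 to 1.56 of the other animals of its group. Without it 4 members were called higher, and without 13-month control 3, 2 were. The share of all probes called without these animals was not computed. With the closest arrays averaged in pairs no member and no probe was called. Where the faint and low-Tg arrays were also left out, 610 probes were called and again no member. With only the averaging, the difference of Ankrd2 was 2.51 and that of Myh7 4.66. The differences of Tnnt1, Tnnc1 and Tnni1 were then 3.42, 3.27 and 2.17, those of Csrp3 and Myl3 were -1.17 and 0.09, and that of Myl2 was 4.31.

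Against 4-month controls, 13-month controls had 3 of 9 members called, all lower, and none with 2 near-equal arrays averaged into 1. Pan-muscle and fast-fibre genes had medians of -3.19 and -2.56 there and follicular cell genes 1.65, and their part in the lower slow-fibre values was not tested. In this comparison 5.13% of probes were called (771 higher and 531 lower, the latter 2.09% of probes). Myl2 fell by 7.91 on the log2 scale (SE 1.72, limma adjusted p 0.00321, two-sided exact permutation p 0.0286), from 2.26, -0.23, 1.39 and 3.07 to -8.87, -8.63 and -1.36. Only 1 of the 3 old controls was well above background for Myl2, so its size is uncertain, and with normexp background correction it was -4.95 and not called. Myh7 fell by 7.43 (SE 1.81, limma adjusted p 0.00616, exact permutation p 0.0571), from 4.15, 0.83, 3.70 and 4.79 to -6.49, -6.61 and 0.91. Tnnt1 fell by 5.90 (SE 1.47, limma adjusted p 0.00726, exact permutation p 0.0286), from 5.33, 3.22, 4.86 and 6.13 to -2.96, -2.63 and 2.55. Control 3 was far less low than controls 1 and 2 for these 3 genes, and for Myh7 it overlapped the lowest young control. Control 2 was not well above background for Myh7.

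The remaining members pointed the same way without passing the test. Ankrd2 differed by -3.80 ± 1.09 (limma adjusted p 0.0156, exact permutation p 0.0857), with the 3 old controls below the 4 young ones. Tnnc1, the calcium sensor of the slow sarcomere, read 3.52, 0.56, 2.94 and 4.11 at 4 months and -3.12, -2.96 and 0.01 at 13 months (-4.81 ± 1.34, limma adjusted p 0.0133). Tnni1, its inhibitory partner, read 2.95, 1.83, 2.99 and 3.91 against -1.13, -0.97 and -0.32 (-3.72 ± 1.28, limma adjusted p 0.0372). For both, each old control lay below each young control. Csrp3 differed by -2.93 ± 1.18, Myl3 by -3.08 ± 1.40 and Atp2a2 by -2.01 ± 0.65 (limma adjusted p 0.0748, 0.113 and 0.0276). All old controls were below all young ones for 8 of 9 members, Myh7 being the exception, and for 12.8% of all probes. The median over members was -3.80 and over all probes 0.19.

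These member calls were lost where the near-equal pair of arrays was averaged. With 13-month controls 1 and 2 averaged into 1, no member was called and 4 probes were called in all. Where the faint and low-Tg arrays were also left out, 2536 probes were called and again no member (lowest member limma adjusted p 0.0160). With only the averaging, Myl2 differed by -6.68 (limma adjusted p 0.0430), Myh7 by -6.18, Tnnt1 by -5.01 and Ankrd2 by -3.55. Tnnc1 then stood at -4.30, Tnni1 at -3.60, Myl3 at -3.28 and Atp2a2 at -1.83. The calls also depended on other single animals. There were 5 members called without 4-month control 2, and none without 4-month control 1 or 4 or without 13-month control 1 or 2. The share of all probes called without each of these animals was not computed. Within a scan date the direction was the same, with the median over members at -3.47 on scan 1 (2 against 2 arrays) and -4.53 on scan 2 (1 against 2). The comparison of exposed adults at 9 months uses the same 13-month controls, so its higher values and these lower ones are not independent. The second Atp2a2 probe had the opposite sign in both comparisons, at 0.72 for old against young controls and -1.16 for exposed adults at 9 months, as it did in young and adult rats at 3 months (-0.96 and 0.34, against 0.57 and -0.48 for the first probe).

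Between 7 and 4 months of age no member was called, with 0.00394% of probes called, and 1 of 9 members, Csrp3, reached an unadjusted limma p under 0.05 beside 7.60% of probes. Csrp3 differed by -2.53 ± 1.18, Myl3 by -2.07 ± 1.40 and Ankrd2 by -1.85 ± 1.09 (limma adjusted p 0.608 to 0.855). The other 6 members lay between -0.29 and 0.61. Without the 7-month control with little Tg all 9 members were below 0, and Ankrd2 stood at -3.55.

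**Figure D4:**
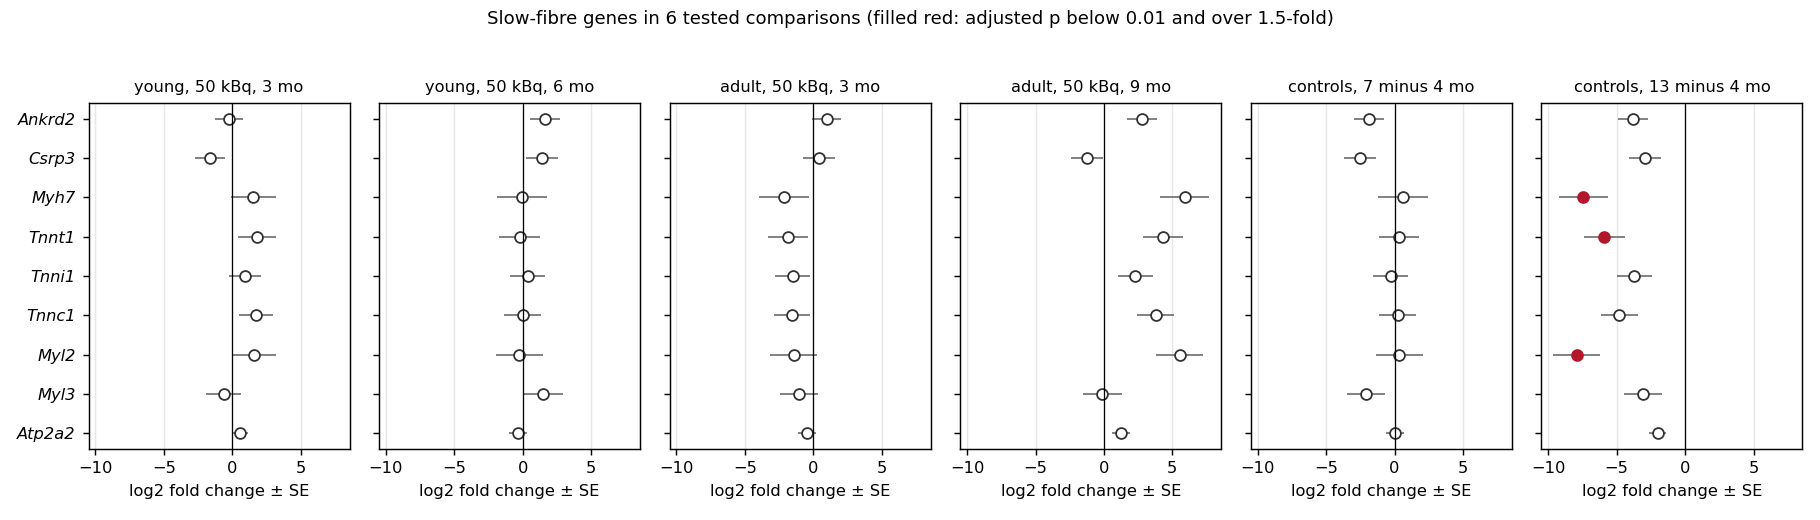
Log2 fold change ± SE of 9 slow-fibre genes in 6 comparisons, 4 of exposed rats against controls of the same age and 2 of older against 4-month controls. Open points did not pass the test. The filled points are Myh7, Tnnt1 and Myl2 in 13-month against 4-month controls, at -7.43, -5.90 and -7.91.

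The effect of 50 kBq was not shown to differ between ages or times. Between adult and young rats at 3 months the difference in Ankrd2's fold change was 1.18 ± 1.48 (interaction term, limma adjusted p 0.598). Between adults at 9 and 3 months it was 8.04 ± 2.56 for Myh7 (limma adjusted p 0.145) and 1.80 ± 1.54 for Ankrd2 (limma adjusted p 0.609). No member was called among 27 such terms, and 0% of 25363 probes were called in any of these comparisons of effects.

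The arrays were read on 3 scan dates, and within a date the differences of Ankrd2 were wide. For young rats at 3 months they were 0.61 on scan 1 and -1.04 on scan 2 (2 against 2 arrays each). For adults they were 2.11 at 3 months on scan 2 and 1.60 at 9 months on scan 1, with 2 against 2 arrays each, and medians over members of -1.93 and 1.17. For 7-month against 4-month controls the difference was -3.88 on scan 2, with a median of -1.48.

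The comparison of young rats at 9 months is the one through which Ankrd2 and Csrp3 were chosen. With 1 probe per gene, every measured member had a mean below that of the 10-month controls at each activity. The activities share those controls, and the share of all probes with a lower mean was not computed. By these probes, Ankrd2 was the one member whose exposed animals all lay below all controls at 0.5, 50 and 500 kBq. That pattern was held by 0.485%, 1.25% and 0.587% of probes at those activities. At 500 kBq it rested on a near tie, with the highest exposed animal at -1.7594 and the lowest control at -1.7556. The second Atp2a2 probe also lay below all controls at 50 kBq (-0.43), but stood at 0.24 at 5 kBq. At 5 kBq the member without overlap was Tnni1 (6.84% of probes). The differences of Ankrd2 were -1.72 ± 1.01, -2.46 ± 1.09, -2.27 ± 1.01 and -2.39 ± 1.01 in the order of activity. Those of Csrp3 were -0.70, -2.06, -0.74 and -1.93, with overlapping groups at every activity. The median over members was -0.70, -1.42, -0.45 and -0.69, and the medians of all probes lay between -0.02 and 0.06. Medians below 0 were also found for pan-muscle genes (-0.15, -0.58, -0.14 and -0.49) and fast-fibre genes (-0.13, -0.47, -0.18 and -0.48).

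At 0.5 kBq the slow genes of the exposed animals split. Myh7 read 5.04, 1.36, 2.19 and 4.80, and Tnnt1 5.96, 2.42, 3.41 and 6.20, against 3.61, 5.37, 3.08 and 4.04, and 4.97, 6.31, 4.40 and 5.37, in controls. Animals 1 and 4 were as high as the controls and animals 2 and 3 lower than all of them. At 500 kBq animal 4 was the lowest, with Myh7 at -0.40 beside 5.26, 3.93 and 5.20, and for Csrp3, Tnni1 and Myl3 2 animals lay below all controls. Its pan-muscle genes averaged 1.01 and its fast-fibre genes 4.06, both below those of the other 3 animals. Without it the median over members was 0.42, in place of -0.69, and the difference of Ankrd2 was -1.62.

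Ankrd2 was also set against the pan-muscle list at 9 months, on the arrays through which it was chosen. Its low values there are a description, and no share of probes with such separation was computed. Its level minus the mean of 13 pan-muscle genes was -4.85 ± 0.72 (SD, n = 4) in 10-month controls and -6.46 ± 0.21, -6.75 ± 1.14 (n = 3), -6.93 ± 0.44 and -6.78 ± 0.62 in young rats after 0.5, 5, 50 and 500 kBq, with no overlap at 0.5, 50 and 500 kBq. Relative to the mean of the 8 other slow-fibre members the differences were -1.10, -0.91, -1.75 and -1.51, and exposed and control animals overlapped at every activity but 50 kBq. In the comparisons that did not choose it, Ankrd2 minus the pan-muscle mean differed by -1.28 (young, 3 months), 1.38 (young, 6 months), 0.76 (adult, 3 months) and 1.61 (adult, 9 months). The two-sided exact permutation p ran from 0.229 to 0.600. In adults at 9 months that quantity was -1.07 in rat 3 and -6.09, -4.94 and -6.02 in rats 1, 2 and 4. Its difference from controls there ran from 0.46 to 2.13 with 1 array left out in turn. In 13-month against 4-month controls that quantity differed by -0.82 (exact permutation p 0.457). Relative to the slow-fibre members instead, these differences were -0.97, 1.31, 2.17 and 0.05, and 0.92 in the old controls. In adults 6 months after 50 kBq, against the same 10-month controls, Ankrd2 differed by -1.26 ± 1.01 and the median over members by -0.02. With adult rats 1 and 2, the other pair of close arrays, averaged into 1, Ankrd2 differed by -1.47.

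The lists of muscle, regulator and other cell type genes together held 100 genes, 85 with a probe, and no gene of the muscle and regulator lists was called in the young rats at 3 or 6 months, the adults at 3 months or the 7-month controls. In adults at 9 months 1 was called, Fabp3, the fatty acid carrier of oxidative fibres, which rose by 2.55 ± 0.54 (limma adjusted p 0.00754), from 0.01, -0.16 and -0.53 in controls to 2.14, 2.66, 1.28 and 3.22. All exposed animals were above all controls, animal 3 among them, as was so for 9.74% of all probes in this comparison. The call was lost under most alternatives. It was lost with the scan date, the slide or the replicate number as a block, with normexp and with no filter on dim probes. It was also lost with the pair of groups fitted alone and with the closest pairs averaged. The same held without adult rat 1, 2 or 4 or any single 13-month control. The difference itself ran from 2.25 to 2.67 under these. In 13-month against 4-month controls Fabp3 fell by 2.84 (SE 0.54) and Casq2, the slow and cardiac calsequestrin, by 3.64 (SE 0.92). This made 2 of 7 tested genes of the other slow-fibre list, beside 2.09% of all probes called lower.

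In the same comparison of old controls, the counts called in the next lists also stand beside 2.09% of all probes called lower. Outside the slow programme, Ankrd1, the relative of Ankrd2 known from strained heart and muscle, was 1 of 5 Z-disc genes called. It fell by 7.21 (SE 1.46), from 2.50, 1.83, -2.23 and 2.00 to -7.83, -7.36 and -3.38, with 1 of the 3 old controls well above background, and stood at -4.95 with normexp, not called. The Z-disc list's brightest probes, Myot (myotilin) and Ankrd23, a further ankyrin repeat relative, were at -3.75 ± 1.31 and -4.34 ± 1.23 (limma adjusted p 0.0406 and 0.0149). Myog (myogenin) fell by 3.00 (SE 0.78) as 1 of 13 pan-muscle genes. Myh3, the embryonic myosin, fell by 5.06 (SE 0.97) as 1 of 2 extraocular and developmental myosins. No fast-fibre gene of 12 and no smooth muscle gene of 6 was called, with medians of -2.56 and -0.17. The fast troponins Tnnc2 and Tnni2 stood at -1.19 ± 0.92 and -1.80 ± 1.01, the muscle enzymes Eno3 and Ckm at -1.78 ± 0.85 and -2.17 ± 1.07, the perinatal myosin Myh8 at -0.80 ± 0.90, the oxygen store Mb at -2.33 ± 1.02 and the smooth muscle genes Smtn and Tagln at -1.98 ± 0.57 and -0.20 ± 0.32. Regulators of the slow programme had a median of -0.37, with Rcan1, a calcineurin target, at -0.47 ± 0.23 and Ppargc1a, the coactivator of oxidative fibres, at 0.08 ± 0.37. Myh6, the atrial myosin and a near-identical relative of Myh7, fell by 7.60 (SE 1.74) as 1 of 7 heart chamber genes, whose median was -0.18. Myl4, the atrial light chain, was at -3.30 ± 1.19 (limma adjusted p 0.0469). With 13-month controls 1 and 2 averaged into 1, none of these 6 calls in old controls stood, the differences running from -6.51 for Ankrd1 to -2.92 for Fabp3. How far the Myh6 and Myh7 probes share target sequence was not checked. The median of 11 follicular cell genes was 1.65 higher in old controls, with none called, and its part in the lower muscle values was not tested.

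Across arrays the members moved together in unequal degree. Over 49 arrays Pearson's r with Ankrd2 was 0.75 for Tnnc1, 0.74 for Tnni1, 0.72 for Atp2a2, 0.71 for Myh7, 0.69 for Tnnt1, 0.68 for Myl2, 0.62 for Myl3 and 0.61 for Csrp3. With group means subtracted these values were 0.60 to 0.76, and without 13-month controls 1 and 2, the arrays farthest from the median of Ankrd2, 0.60 to 0.69. Myh7 was closer to its sarcomere partners than to Ankrd2, with r of 0.99 to Tnnt1, 0.97 to Tnnc1 and 0.96 to Myl2. Csrp3 and Myl3 were closest to each other (0.87), and Csrp3 had r of 0.57 to Myh7. The arrays share their tissue makeup and their scaling, so these are descriptions of 49 arrays.

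Other genes followed Ankrd2 more closely than the slow-fibre members did. Of 21371 probes, the named genes most like it over 49 arrays were Ube2g1 (Pearson's r 0.785), Acsl6 (0.781), Lmod2 (0.779), Bag3 (0.772) and Kpna1 (0.772). Lmod2 is a leiomodin of striated muscle thin filaments, and Bag3 is a co-chaperone that serves the Z-disc. With group means subtracted they were Camsap1 (0.787), Mllt11 (0.785), Spdya (0.783), Aqp4 (0.781), the water channel also found in fast muscle fibres, and Prmt3 (0.781). Tnnc1 ranked 32 and Csrp3 1340 over 49 arrays. The mean of the 8 slow members had r of 0.75 to Ankrd2, the Z-disc list 0.63, the pan-muscle list 0.62, the fast-fibre list 0.55 and the follicular cell list -0.43.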

How the data were processed

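Total RNA from 49 thyroids (1 animal per array) was labelled with Cy3 and hybridised to Agilent Sureprint G3 Rat GE 8x60K arrays. The authors deposited scanner files from Feature Extraction, whose processed signal intensity is background-subtracted but not scaled between arrays, together with marks for control, outlier and well-above-background spots, used here. The submitters' processing notes name Partek. A deposited table of the authors' fold change ratios and adjusted p-values was not used.

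Control and outlier spots were left out, spots of a probe averaged, and each array's 75th percentile subtracted from the log2 of the deposited processed signal. Of 30367 probes, 17998 matched a RefSeq symbol (GRCr8), and for each gene the probe with the highest mean was used. Probes well above background on at least 3 arrays (25363) entered 1 limma fit of 13 groups, with Benjamini-Hochberg adjustment over all of them. Genes were called at adjusted p below 0.01 and 1.5-fold. The fit recovered added changes in simulated data with independent noise for each probe. That noise held no shared array effects, outlying animals or near-equal arrays, so power in the real data was not tested. Precision is limited by 3 or 4 animals per group, and exact permutation p cannot go below 0.0286. For young rats at 6 months, the deviations of same-numbered arrays had r of 0.14 to 0.33 in 3 pairs. For adults at 6 months such pairs ran from -0.52 to 0.50, so these values do not show a pairing, and the labels state none. The fit with replicate number as a block changed no member's call in young rats at 6 months. R 4.3.3 with limma 3.58.1 and the package data.table (1.17.8), and Python 3.11.15 with pandas 2.3.3, numpy 2.4.6 and matplotlib 3.10.9, were used.

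The members and the 14 gene lists were chosen with earlier results of these data known. Named in the text are the members, the 5 genes nearest to Ankrd2 by Pearson's r (over 49 arrays and with group means subtracted), and of each list the 2 brightest genes and those called, given only for the muscle and regulator lists; 1 further gene is not reported here. The alternatives, described after the results, were another background correction, scalings, filters, blocks, array weights, thresholds, single groups and single arrays left out.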

Additional observations from a re-analysis of the deposited data

Results flagged for a closer look

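Within the 10 groups of 4 animals, 90 sets of 4 values were examined, and in 14 of them 1 animal stood apart, its gap to the nearest other value being over Dixon's critical share of the group's range. Chance gives this in about 5% of sets, and sets from the same animal are not independent. Adult rat 3 at 9 months after 50 kBq gave 6 of these, all as the lowest animal: Myh7 at -5.81, Tnnt1 at -3.17, Tnni1 at -3.56, Tnnc1 at -3.55, Myl2 at -9.22 and Myl3 at -3.76. Its pan-muscle and fast-fibre means were also the lowest of all 49 arrays.

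Adult rat 2 at 3 months was lowest for Tnni1 at -3.30, Myl2 at -3.69 and Myl3 at -3.67, with its pan-muscle and fast-fibre means inside the range of the other animals of its group. Young rat 2 at 3 months, the faint array, was lowest for Tnni1 at 2.50 and Myl2 at 2.55. Young rat 1 at 9 months after 50 kBq was highest for Tnni1 at 3.15 and Atp2a2 at 4.14. Adult rat 3 at 6 months was lowest for Myl3 at 2.66. The effect of 50 kBq was not shown to differ between ages or times for any member in 27 interaction terms. In these comparisons of effects 0% of all probes were called.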

How the results depend on the processing

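The median over members moved by less than the spread between replicates in all 151 recomputations, but that spread was 1.80 on the log2 scale, larger than most of the medians, and single arrays turned some: without animal 4 the median at 500 kBq went from -0.69 to 0.42. The difference of the 50 kBq effect between adult and young rats in Ankrd2 was never called, but moved from 1.18 to 2.91 without the 2 arrays of low Tg and from 0.22 to 2.88 with 1 array left out in turn. In 13-month against 4-month controls, 0 members were called with normexp background correction and 0 where each pair of groups was fitted alone. The count was 1 with slide as a block, 5 with scan date as a block, 8 with array weights and 7 at adjusted p under 0.05. Under these settings the share of all probes called was not computed. Settings added after seeing the data gave 0 members called with the closest pairs averaged, with or without the faint and low-Tg arrays. Same-numbered arrays did not deviate together there (3 pairs, r -0.15 to 0.04), and 1 member was called with the replicate number as a replicate block; the block changed no other count of called members. The cause of these shifts was not tested.

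Ankrd2 in that comparison passed the threshold with scan date as a block (-3.95), array weights (-4.78) and adjusted p under 0.05 (-3.80). Relative to the pan-muscle list it changed sign to 0.36 with normexp, and to 0.89 against the Z-disc list. In adults at 9 months, 7 members including Ankrd2 (3.79) were called with array weights and 1 at adjusted p under 0.05. The share of all probes called was not computed here either. Myl3 changed sign in these adults to 0.0066 with normexp, 0.85 with array weights and 0.0918 with the closest pairs averaged, also without the 3 arrays. Ankrd2 in young rats at 3 months changed sign to 0.0275 with normexp, 0.0178 without the faint array and 0.0873 without the 3 arrays and with the pairs averaged.

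The share of all probes called was not computed where 1 array was left out in turn. Members called then ranged from 0 to 5 in 13-month against 4-month controls and from 0 to 4 in adults at 9 months. Ankrd2 ranged from -4.70 to -3.02 in the former and from -1.12 to 0.56 in young rats at 3 months, and relative to the pan-muscle list from -0.018 to 1.73 in adults at 3 months. In adults at 9 months Csrp3 ranged from -1.99 to 0.23 and Myl3 from -0.82 to 1.56. Where a group was left with 2 arrays the fit borrowed the spread of the other groups. Array number and signal over background limit the precision, since Myl2 and Myh7 were near background on the lowest arrays.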
